A study of Homo sapiens with 7 samples.

Results

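The enzymes of oxidative phosphorylation (OXPHOS) are built from subunits of separate genetic origin, most of them transcribed in the nucleus and a small set transcribed from mitochondrial DNA. Complex I (NADH dehydrogenase) and complex II (succinate dehydrogenase) pass electrons to ubiquinone, complex III (cytochrome bc1) passes them on to cytochrome c, and complex IV (cytochrome c oxidase) passes them to oxygen. Complexes I, III and IV pump protons across the inner mitochondrial membrane, and complex V (ATP synthase) lets the protons return while it makes ATP. Pluripotent stem cells are known to depend largely on glycolysis, and oxidative metabolism becomes more prominent as they differentiate.

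The transcripts of the nuclear-encoded subunits were examined in human embryonic stem cells (hESCs). Genes were chosen by name: the NDUFA, NDUFB, NDUFC, NDUFS and NDUFV series, SDHA to SDHD, the UQCR series and CYC1, the COX4 to COX8 series, and the ATP5 series. Of 105 rows with such a name, 15 lay on patch or alternate sequences, where all were listed at 0, and 2 were read-through names. The remaining 88 genes of 20187 on chromosomes were the members. By list, 36 belonged to complex I, 4 to complex II, 9 to complex III, 11 to the ubiquitous set of complex IV, 7 to its tissue-restricted or stress isoforms and 16 to complex V. A further 3 (COX7A2L, ATP5S and ATP5SL) are related by name, and 2 (ATP5EP2 and COX6A1P2) are pseudogenes by name.

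All 7 libraries came from SEES-3, an established hESC line grown without feeders. Every culture carried a drug-selected, doxycycline (Dox)-inducible piggyBac transgene and a constitutive rtTA activator. In JMJD3c-hESCs the transgene encoded the catalytic domain of JMJD3 (KDM6B), which removes methyl groups from lysine 27 of histone H3, and in JMJD3c mut-hESCs it encoded a catalytically inactive version. JMJD3c-hESCs were sampled without Dox (Day 0) and on Day 1, Day 2, Day 3 and Day 4 of Dox at 1 µg/ml, and JMJD3c mut-hESCs without Dox and on Day 4 of Dox. Each condition had 1 library, so no test between conditions was possible, and every difference below is one between libraries. Differences between the transgenes and differences between the 2 cell lines cannot be told apart.

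KDM6B stood at 3.45 and 2.40 FPKM (fragment counts scaled to transcript length and to the depth of the library) in the untreated JMJD3c and mutant libraries. With Dox it was at 158 to 282 FPKM over Day 1 to Day 4, and at 454 FPKM in the mutant. All 7 pluripotency markers were above 4 FPKM in every library, and their summed level went from 2295 FPKM at Day 0 to 1618 FPKM at Day 4. In the mutant this sum was also lower with Dox, at 1854 FPKM against 2138 FPKM without Dox, and all 7 markers were lower. The 7 mesendoderm markers summed to 5.49 FPKM at Day 0 and 176 FPKM at Day 4, against 9.32 and 6.90 FPKM in the mutant without and with Dox. Of 6 fibroblast and muscle markers, DCN, LUM, MYOD1 and MYOG were listed at 0 in every library. The other 2 were above 4 FPKM in every library, COL1A1 at 4.18 to 11.3 FPKM and COL1A2 at 12.5 to 28.4 FPKM. The part of this shift in cell state in the results below was not tested, and in bulk RNA fewer cells of a type and less RNA per cell cannot be told apart. From the smallest steps between low FPKM values, about 1770000 reads were estimated for Day 0, the reference of the time course, and 2430000 to 3650000 for the other libraries. The scale of all 7 estimates rests on 19 genes at Day 0 whose commonest step was taken as 1 read, and would move in proportion if that step were not 1 read, while the depth of each other library relative to Day 0 rests on 118 to 152 genes.

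Promoters of the members are shown because the nuclear respiratory factors NRF1 and NRF2 (GABP, of the ETS family) and the factor YY1 are known regulators of these genes. RefSeq windows (GRCh38.p14) of 300 bases, from 250 before to 50 after a start, were found for 67 members, with 80 starts. The letters GCGCNTGCG (NRF1 core) occurred on either strand in 25 of the 80 windows (31.3%), against 7.47% of all 35116 windows and 13.2% of those of genes above 4 FPKM. CCGGAAG (ETS core) occurred in 21 windows (26.3%), against 10.3% and 17.9%. AAGATGGCG (YY1 core) occurred in 10 windows (12.5%), against 1.75% and 3.69%. Among member windows with more than one kind of match, no matches overlapped, and 44 windows (55%) held at least one, against 17.4% of all windows, 30.5% of those of genes above 4 FPKM and 36.1% of those of genes with a mean above 50 FPKM. A match is a run of letters and was not shown to be a bound site.

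The 100 bases before the start are given for 6 members that recur below, with matches in capitals. SDHA (chr5:218220-218319, plus strand) holds the NRF1 core in reverse orientation more than once, ATP5C1 (chr10:7788077-7788176, plus strand) holds it in both orientations, and SDHD (chr11:112086773-112086872, plus strand), COX5B (chr2:97645962-97646061, plus strand) and UQCRH (chr1:46303598-46303697, plus strand) hold the ETS core. NDUFB10 (chr16:1959438-1959537, plus strand) has no match in its window.
SDHA: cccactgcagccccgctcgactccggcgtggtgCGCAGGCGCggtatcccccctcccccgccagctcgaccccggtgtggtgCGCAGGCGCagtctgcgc
SDHD: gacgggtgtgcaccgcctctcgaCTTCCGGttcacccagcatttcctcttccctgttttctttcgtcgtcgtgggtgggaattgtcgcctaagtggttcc
UQCRH: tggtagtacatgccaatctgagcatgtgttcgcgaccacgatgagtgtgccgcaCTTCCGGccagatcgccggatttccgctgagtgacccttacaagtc
COX5B: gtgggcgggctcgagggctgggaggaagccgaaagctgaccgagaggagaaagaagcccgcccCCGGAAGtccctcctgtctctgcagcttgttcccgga
ATP5C1: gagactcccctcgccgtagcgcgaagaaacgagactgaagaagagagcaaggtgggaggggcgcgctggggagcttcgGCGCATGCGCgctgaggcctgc
NDUFB10: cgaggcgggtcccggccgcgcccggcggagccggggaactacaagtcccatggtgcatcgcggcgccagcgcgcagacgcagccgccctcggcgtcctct

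Nearly all members were expressed. Of the 88, 79 were above 4 FPKM in every library, 80 in at least 1, and 8 in none. The median FPKM of members above 4 FPKM was 106 at Day 0, 89.4 at Day 4, and 82.4 and 82.7 in the mutant without and with Dox. Together the members made up 2.79% of all FPKM from nuclear genes at Day 0, 2.46% at Day 4, and 2.23% and 2.15% in the mutant.

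Levels per length differed between complexes. At Day 0 the median subunit stood at 285 FPKM in complex IV, 237 in complex V, 107 in complex III, 78.7 in complex I and 58.3 in complex II. Averaged over the 7 libraries, ATP5B, the catalytic beta subunit of ATP synthase, was the highest member at 613 FPKM. It was followed by ATP5J2, a subunit of the membrane part of ATP synthase, at 444 FPKM, the alpha subunit gene ATP5A1 at 437 FPKM, and COX4I1, the ubiquitous form of subunit IV, at 400 FPKM. NDUFS5 at 351 FPKM led complex I, UQCRH, the hinge protein, at 334 FPKM led complex III, and SDHD, a membrane anchor, at 75.3 FPKM led complex II. Low members with some expression were NDUFV3 at 12.5 FPKM, ATP5E at 9.49 FPKM and ATP5S at 6.74 FPKM.

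Cufflinks gives a 95% interval for each FPKM, which covers uncertainty in assigning reads within that library and says nothing of how cultures vary. For 14 to 18 members per library the deposited FPKM lay outside its own interval, always above it, among them NDUFA13, COX5B, COX8A and UQCRH in all 7 libraries. Statements on intervals for these genes are limited by that. Many of these genes also have processed copies elsewhere in the genome, such as COX6A1P2 at 85.5 to 231 FPKM beside COX6A1 at 103 to 123 FPKM, and their reads may be divided between copies.

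The first comparison asked how the members changed as JMJD3c was induced. On each day with Dox, most members stood somewhat below Day 0. Ratios are given as log2 of (FPKM + 1), for genes above 4 FPKM in either library. The median of 80 members was -0.16 on Day 1, -0.19 on Day 2, -0.18 on Day 3 and -0.24 on Day 4. The same medians over all tested genes were -0.03, -0.05, -0.01 and -0.06. On Day 4, 15 of 80 members (18.8%) were higher than at Day 0, against 44.8% of 10247 tested genes. At Day 0, 80 members were above 4 FPKM, and 49 of these (61.3%) were below Day 0 on all 4 days, against 33.5% of all genes. Above Day 0 on all 4 days were 5 members (NDUFA8, NDUFB3, NDUFB5, UQCRC2 and COX7A2L), for which no share of all genes is given. These 4 comparisons share the Day 0 library, so its own error enters each of them.

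The shifts were mostly small. At 1.5-fold, no member was called higher on Day 1, when 9.08% of all tested genes were, and 7 of 80 (8.75%) were called lower, against a background of 9.88%. On Day 2, 1 member was called higher (background 10.4%) and 7 lower (background 11.6%). On Day 3, 1 was called higher (background 11.9%) and 7 lower (background 11.4%). On Day 4, none was called higher (background 12.9%) and 14 (17.5%) were called lower, which is close to the background of 17.8%. Calls were rarer among the 1668 genes with a mean above 50 FPKM, of which 0.959%, 1.499%, 2.70% and 3.90% were called higher on Day 1 to Day 4 and 3.18%, 4.86%, 4.08% and 9.35% lower. Of the 62 members with such a mean, 0, 1, 1 and 0 were called higher, and 4 (6.45%), 3 (4.84%), 2 (3.23%) and 9 (14.5%) lower. The count of lower members at Day 4 was thus close to the share among all genes and above that among highly expressed genes. By interval, none of the 80 members was higher at Day 4 with an interval apart from that of Day 0 (background 5.15%), and 16 (20%) were lower (background 7.00%, and 16.9% among genes with a mean above 50 FPKM). With both criteria, 0 were higher (background 3.99%) and 10 (12.5%) lower (background 5.22%). Among genes with a mean above 50 FPKM, 3.54% were higher and 7.67% lower by both criteria. Over the 5 JMJD3c libraries the highest value of a member was at the median 1.33 times its lowest, and 54 of 80 members stayed within 1.5-fold.

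The size of the Day 4 difference depended on what the members were compared with. Among the 1668 genes with a mean above 50 FPKM the Day 4 median was -0.10, and 36.3% were higher. When the median of genes of like expression level was subtracted, the members' median was -0.11, and with genes of like transcript length it was -0.08. Against the untreated mutant library in place of Day 0 the Day 4 median was +0.14, with 54 of 79 members higher, since 43 members at Day 4 lay between the untreated mutant and Day 0, and 22 lay below both. At 1.5-fold, 18, 19, 21 and 16 members were called higher than the untreated mutant on Day 1, Day 2, Day 3 and Day 4, against backgrounds of 14.4%, 14.6%, 17.3% and 15.2%, and 0, 3, 2 and 2 were called lower, against 8.42%, 9.36%, 9.45% and 13.3%. The direction of the median thus turned with the untreated library chosen.

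**Figure D1:**
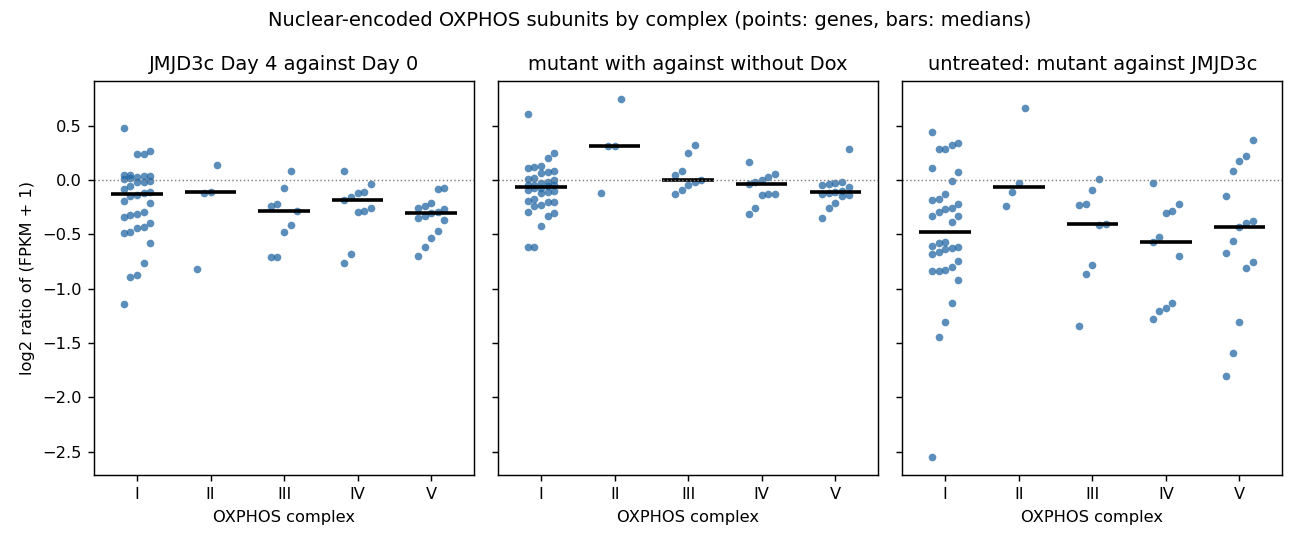
Log2 ratio of (FPKM + 1) for each member above 4 FPKM (points) in complexes I to V, with the median of each complex (bar), for JMJD3c Day 4 against Day 0 (left), mutant with against without Dox (middle) and untreated mutant against untreated JMJD3c-hESCs (right). The medians of all 5 complexes lie below 0 on the left, between -0.11 and 0.00 in the middle except for complex II at 0.31, and between -0.07 and -0.57 on the right.

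Complex V was the most uniform complex at Day 4. All 15 expressed subunits were below Day 0. The intervals of 7 lay below those of Day 0, against 7.00% of all tested genes and 16.9% of genes averaging above 50 FPKM. The complex V median was -0.30. This median lay between -0.18 and -0.30 under corrections for GC content, length and expression level and under both rescalings, so its direction did not turn. ATP5B was at 658 FPKM at Day 0, 615, 547, 551 and 533 FPKM on Day 1 to Day 4, and 699 and 686 FPKM in the mutant without and with Dox. It was lower on Day 2 to Day 4 than in both untreated libraries. ATP5F1, the b subunit of the peripheral stalk, was also below both, with 110 FPKM at Day 0, 96.5, 87.6, 78.01 and 89.5 FPKM over the days with Dox, and 142 and 129 FPKM in the mutant. ATP5A1 and ATP5C1, the gamma subunit, also lay below both untreated libraries on Day 2 to Day 4. Of all 80 expressed members 9 (11.3%) did so, against 15.4% of 10878 genes above 4 FPKM in any library. On the same days 3 members (3.75%) lay above both untreated libraries, against 14.6% of those genes.

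The subunit c of the rotor ring is encoded by ATP5G1, ATP5G2 and ATP5G3, whose mature products are the same protein. Their summed level was 911 FPKM at Day 0, 778, 774, 830 and 675 FPKM on Day 1 to Day 4, and 644 and 582 FPKM in the mutant. Shares within this sum moved little, with ATP5G1 at 23.9% at Day 0 and 19.8% at Day 4. ATP5G1 was the only one of them called lower at Day 4, from 217 to 134 FPKM. ATP5D, the delta subunit of the central stalk, was called too, from 112 to 73.0 FPKM.

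In complex III, 8 of 9 subunits were lower at Day 4, with a median of -0.28, which was -0.18 after correction for coding length. CYC1, the cytochrome c1 gene, was at 124 FPKM at Day 0, 97.6, 99.0, 98.3 and 75.1 FPKM on Day 1 to Day 4, and 93.1 and 98.6 FPKM in the mutant. UQCR11, the smallest subunit, was at 62.1 FPKM at Day 0, 38.6 to 50.04 FPKM on Day 1 to Day 3, 37.6 FPKM at Day 4 and 33.7 FPKM in both mutant libraries. Both genes were called lower at Day 4 with separate intervals. UQCRC2, a core subunit, was the exception in this complex at 88.3 FPKM at Day 0, 89.5, 103, 96.5 and 93.4 FPKM with Dox, and 88.7 and 106 FPKM in the mutant. Its intervals at Day 0 (74.8 to 102 FPKM) and Day 4 (78.8 to 108 FPKM) overlapped.

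In complex IV, 10 of the 11 ubiquitous subunits were lower at Day 4, with a median of -0.18, which was -0.01 after correction for transcript length. COX7C, a small membrane subunit, was at 451 FPKM at Day 0, 313 FPKM on Day 1, 314 FPKM on Day 2, 313 FPKM on Day 3, 264 FPKM on Day 4, and 206 and 172 FPKM in the mutant without and with Dox. COX5B, which binds zinc on the matrix side, was at 227 FPKM at Day 0, 157, 154, 140 and 142 FPKM with Dox, and 93.4 and 105 FPKM in the mutant. Both genes stood lower still in the untreated mutant than at Day 4. COX7A2, the ubiquitous subunit VIIa, was the one subunit higher at Day 4, at 303 against 286 FPKM.

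Complex I gave the widest spread. Its median at Day 4 was -0.13, with 11 of 36 subunits higher, and it was close to 0 after correction for transcript length (0.01) or coding length (-0.01). By module, the medians were -0.10 for the 8 genes of the NADH-oxidising N module, -0.27 for the 8 of the ubiquinone-reducing Q module and -0.15 for the 20 of the proton-pumping P module. NDUFB10, an accessory subunit of the membrane arm (hg19 chr16:2009509-2011976), was at 198 FPKM at Day 0 (interval 162 to 234 FPKM), 122, 132, 97.7 and 89.4 FPKM on Day 1 to Day 4, and 89.8 and 98.0 FPKM in the mutant. It was called lower with separate intervals on all 4 days, and at Day 4 stood at 0.452 of its Day 0 level, with no gap to either mutant library. NDUFB4 went from 229 to 123 FPKM and NDUFA13 from 265 to 156 FPKM between Day 0 and Day 4, beside 92.4 and 149 FPKM in the untreated mutant. NDUFB3, another accessory subunit, was at 48.6 FPKM at Day 0, 61.3, 77.5, 60.9 and 68.2 FPKM with Dox, and 48.4 and 47.8 FPKM in the mutant. It stood above both untreated libraries on every day with Dox, although its intervals at Day 0 (29.3 to 68.0 FPKM) and Day 4 (49.4 to 86.9 FPKM) overlapped.

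**Figure D2:**
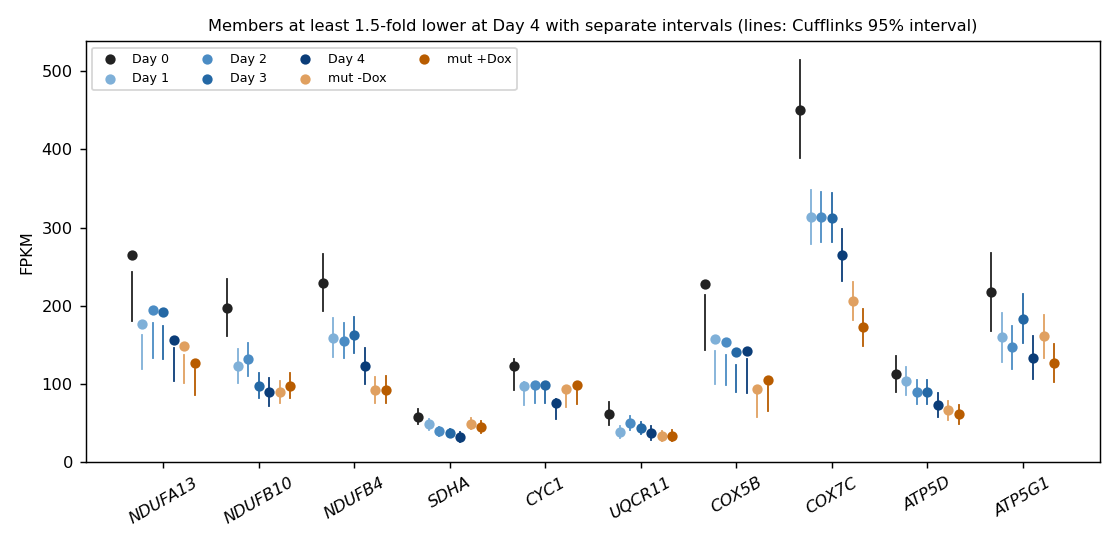
FPKM in the 7 libraries (points, with Cufflinks 95% intervals as lines) of the 10 members that were at least 1.5-fold lower at Day 4 than at Day 0 with separate intervals. Day 0 is the highest of the 7 libraries for all 10, and both mutant libraries lie below Day 4 except for NDUFB10, SDHA, CYC1 and ATP5G1.

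SDHA, the flavoprotein of complex II that oxidises succinate (hg19 chr5:218356-256815), was with NDUFB10 and CYC1 one of 3 of these 10 genes whose lowest library was Day 4. It was at 58.1 FPKM at Day 0, 48.3, 39.3, 37.3 and 32.4 FPKM on Day 1 to Day 4, and 48.9 and 45.0 FPKM in the mutant without and with Dox. Each day was below the one before it, and Day 4 was at 0.559 of Day 0 and 0.663 of the untreated mutant. Its Day 4 interval (26.1 to 38.9 FPKM) lay below those of Day 0 (48.5 to 68.1 FPKM) and the untreated mutant (42.0 to 55.9 FPKM). Of the 10 members called lower at Day 4 with separate intervals, 3 (NDUFB10, NDUFB4 and SDHA) kept the call under all 10 alternatives tried for single genes. These 10 covered pseudocount, filter, scaling, GC content, length and expression level, but neither the 2-fold rule nor the untreated mutant as reference. NDUFB4 (0.538 of Day 0) and SDHA fall short of 2-fold. Against the untreated mutant, NDUFB10 at Day 4 was at a like level and NDUFB4 was higher.

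The other subunits of complex II did not follow SDHA. SDHB, the iron-sulphur subunit, was at 43.2 FPKM at Day 0, 37.9, 38.2, 40.4 and 39.7 FPKM with Dox, and 42.5 and 53.1 FPKM in the mutant. SDHC, a membrane anchor, was at 61.9 FPKM at Day 0, 54.6, 54.1, 54.2 and 57.4 FPKM with Dox, and 57.2 and 96.7 FPKM in the mutant. For SDHD the values were 58.6 FPKM at Day 0, 71.9, 52.7, 68.8 and 64.7 FPKM with Dox, and 93.8 and 117 FPKM in the mutant. In JMJD3c-hESCs these 3 genes stayed within 1.5-fold, and each had its highest value of all 7 libraries in the mutant with Dox.

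**Figure D3:**
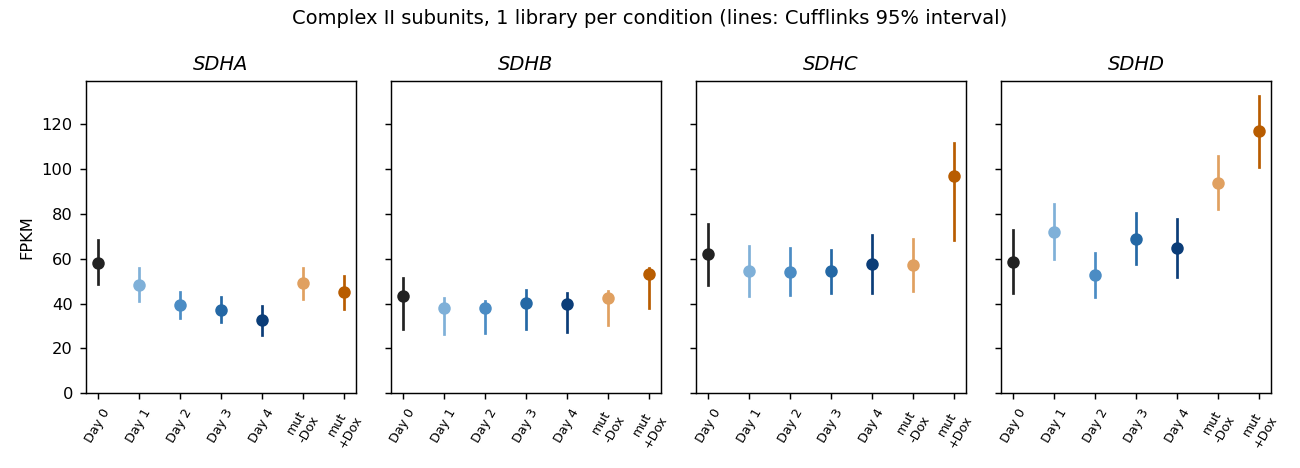
FPKM of the 4 complex II genes in each library (points) with the Cufflinks 95% interval (lines). SDHA steps down from 58.1 FPKM at Day 0 to 32.4 FPKM at Day 4, while SDHB, SDHC and SDHD are highest in the mutant with Dox, at 53.1, 96.7 and 117 FPKM.

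The second comparison, of JMJD3c mut-hESCs with and without Dox, asked what Dox and the inactive protein did by themselves. The 79 tested members had a median of -0.05, against 0.00 for all 9736 tested genes, and 25 (31.6%) were higher. At 1.5-fold, 2 members (2.53%) were called higher and 2 lower, against backgrounds of 5.09% and 5.17%. Of the 62 members with a mean above 50 FPKM, 2 (3.23%) were called higher and 0 lower, against 0.600% and 1.02% of all genes with such a mean. By interval, none of the 79 was higher and 1 lower, against 1.47% and 1.68%, and 3.12% and 4.08% of genes with a mean above 50 FPKM. Complex V again leaned one way, with 14 of 15 subunits lower at a median of -0.11, whereas complex II had 3 of 4 higher at a median of 0.31. The medians of complexes I, III and IV were -0.06, 0.00 and -0.04, and that of complex IV turned positive after either length correction.

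The calls were SDHC (1.69-fold higher), NDUFB1 (1.54-fold higher), NDUFA9 and NDUFA1. NDUFA9, a subunit near the ubiquinone site, was at 46.5 FPKM without Dox and 30.03 FPKM with Dox in the mutant, with separate intervals (37.7 to 55.3 and 25.4 to 34.7 FPKM). In JMJD3c-hESCs it was at 53.0 FPKM at Day 0, 44.7, 44.8, 34.6 and 62.9 FPKM with Dox, so its values there covered a like range with no single direction. NDUFA1 was at 28.5 and 18.3 FPKM in the mutant and at 41.3 to 56.6 FPKM in JMJD3c-hESCs. Of the other large differences, UQCRFS1, the Rieske protein, was at 64.2 and 80.9 FPKM, and NDUFS8, an iron-sulphur subunit of complex I, at 74.2 and 55.2 FPKM. Both were within 1.5-fold.

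The difference in the JMJD3c line at Day 4 and that in the mutant line were each based on a pair of libraries, and the difference between them was not tested. Of the 80 members, 30 (37.5%) differed in opposite directions in the 2 lines, against 45.7% of genes, and 0 did so by more than 1.5-fold in both, against 1.82% of 10878 genes above 4 FPKM in any library, a share at which a count of 0 among 80 says little. NDUFA9 came nearest, at 1.19 times its Day 0 level on Day 4 and 0.646 times its untreated level in the mutant with Dox.

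The third comparison set the untreated lines against each other, and here the members differed more than after 4 days of Dox. In the untreated mutant library the median of 80 members was -0.42 relative to JMJD3c Day 0, against -0.05 for all tested genes, and 13 members (16.3%) were higher. At 1.5-fold, 35 members (43.8%) were called lower and 1, SDHD, was called higher, against backgrounds of 17.8% and 10.7%. Of the 62 members with a mean above 50 FPKM, 24 (38.7%) were called lower, against 14.04% of all genes with such a mean. With Dox in both lines the order was the same in reverse: JMJD3c Day 4 was above the mutant by a median of 0.24, and 19 of 79 members (24.1%) were called higher and 2 (2.53%), SDHC and SDHD, lower, against backgrounds of 14.4% and 12.1%. In total 45 of 80 members (56.3%) were lower in both mutant libraries than in all 5 JMJD3c libraries, against 15.6% of genes, and 7 (8.75%) were higher, against 14.8%.

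In the untreated mutant 14 members were at less than 0.5 of their Day 0 level. The share of all tested genes below 0.5 is not given here, and that called lower at 1.5-fold was 17.8%. NDUFB1, a short accessory subunit of complex I (hg19 chr14:92582466-92588261), was at 198, 137, 187, 171 and 235 FPKM over Day 0 to Day 4 and at 33.1 and 50.9 FPKM in the mutant. ATP5I, the e subunit of ATP synthase, was at 440, 303, 345, 359 and 305 FPKM in JMJD3c-hESCs and at 125 and 115 FPKM in the mutant. COX8A, the ubiquitous subunit VIII, was at 486, 485, 466, 475 and 396 FPKM and at 211 and 219 FPKM. For all 3 the lines did not overlap, and the lowest JMJD3c library was above the highest mutant library. UQCRB (136 against 53.1 FPKM untreated), COX6C (285 against 125 FPKM), ATP5J2 (678 against 274 FPKM) and NDUFA3 (155 against 56.4 FPKM) were also among the 14, as were NDUFB4, NDUFB10, COX5B and COX7C, whose values are given above, the low COX7A1 and ATP5E, and the pseudogene COX6A1P2.

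The 7 members higher in both mutant libraries were NDUFS1, NDUFA8, NDUFA5, SDHD, ATP5A1, ATP5B and ATP5F1. NDUFS1, the large iron-sulphur subunit of complex I, was at 44.3 to 49.0 FPKM in JMJD3c-hESCs and at 60.4 and 58.2 FPKM in the mutant. By group, the medians of the untreated difference were -0.74 for the membrane part of complex V, -0.67 for the P module, -0.57 for complex IV, -0.40 for complex III, -0.15 for the F1 and stalk subunits of complex V and -0.07 for complex II, the last of which turned positive after either length correction.

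This line difference varied with coding length. The median coding length of members was 410 bases against 1392 bases for genes above 4 FPKM, and 47 of the 80 expressed members (58.8%) had at most 500 coding bases, against 9.08% of such genes. In the untreated comparison the median log2 ratio was -0.86 for 21 members of up to 300 coding bases, none of them higher in the mutant, -0.61 for 26 of over 300 and up to 500 bases, -0.22 for 21 of over 500 and up to 1000 bases and -0.17 for 11 longer ones. All nuclear genes of the same classes had medians of -0.44, -0.23, -0.11 and -0.01. With Dox in both lines, the members' medians (Day 4 against mutant) were 0.75, 0.30, -0.08 and -0.13, and those of all nuclear genes 0.39, 0.20, 0.04 and -0.07. Across members Spearman's rho between coding length and the log2 ratio was 0.63 (n = 79 genes) for the untreated lines and -0.66 (n = 78) with Dox. Against Day 0 it was 0.30, 0.01, 0.03 and 0.01 on Day 1 to Day 4 (n = 79 each). Genes share libraries and are not independent. All nuclear genes had medians of -0.18, -0.12, -0.06 and -0.02 on Day 1 against Day 0, from the shortest class to the longest. On Day 4 these were -0.14, -0.10, -0.07 and -0.05.

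**Figure D4:**
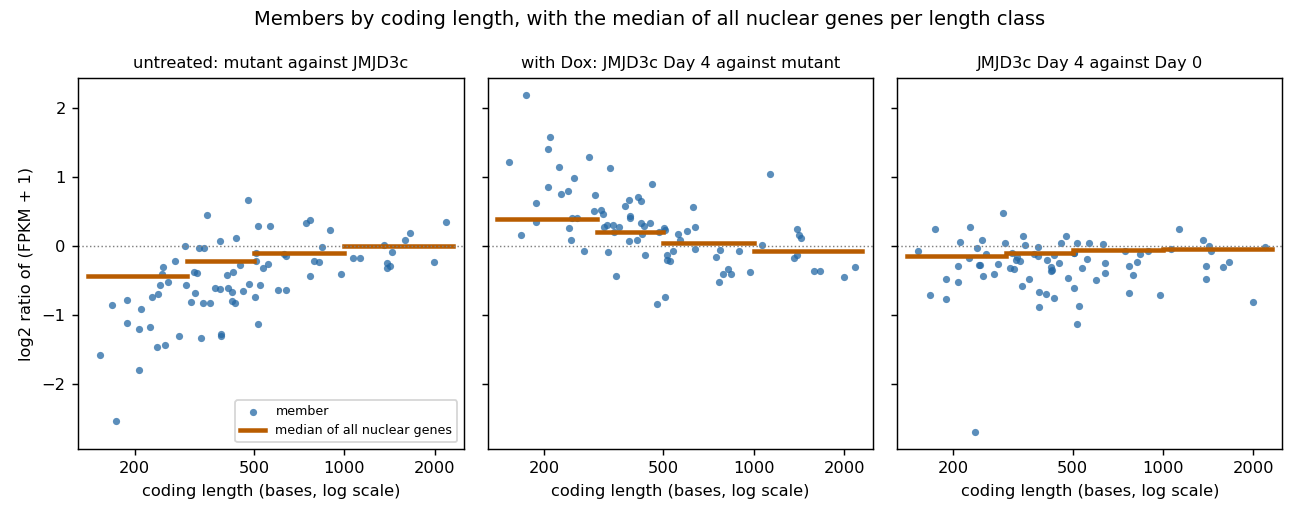
Log2 ratio of (FPKM + 1) of each member (blue points) against its coding length in bases on a log axis, with the median of all nuclear genes in 4 length classes (orange lines), for untreated mutant against untreated JMJD3c-hESCs (left), JMJD3c Day 4 against mutant with Dox (middle) and JMJD3c Day 4 against Day 0 (right). Members of up to 300 bases have medians of -0.86, 0.75 and -0.27 in the 3 panels, and all nuclear genes of that class -0.44, 0.39 and -0.14.

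When the median of genes of like coding length was subtracted, the untreated median was -0.25 and the median with Dox was 0.05. The number called lower in the untreated mutant was then 17 of 80, and the number called higher at Day 4 against the mutant 11 of 79. Without this correction the shares of all tested genes were 17.8% and 14.4%, and corrected shares are not given here. Short reading frames encoded in the mitochondria were also lower: between untreated libraries, MT-ATP8 was at 6645 FPKM in JMJD3c-hESCs and 1303 FPKM in the mutant, and MT-ND4L at 4165 and 1305 FPKM. These share mRNAs with MT-ATP6 (8381 and 8471 FPKM) and MT-ND4 (5253 and 5109 FPKM), which overlap them and were at like levels in both libraries. In such overlapping pairs coding length does not stand for mRNA length. MT-ND3, with 346 coding bases, was at 2831 and 1096 FPKM. The mitochondrial medians were -2.01 for the 2 genes of up to 300 coding bases, which are MT-ATP8 and MT-ND4L, and -1.37 for MT-ND3. They were -0.21 for 5 genes of over 500 and up to 1000 bases and -0.04 for 5 longer ones. Whether RNA handling or library size selection had a part in the length dependence was not tested.

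The subunits transcribed from mitochondrial DNA were set beside the nuclear members, since both are needed for complexes I, III, IV and V. The 13 mitochondrially encoded genes had a median of +0.30 at Day 4 against Day 0, and 11 (84.6%, against 44.8% of all tested genes) were higher, all 11 with separate intervals (background 5.15%), although none passed 1.5-fold (background 12.9%). MT-CYB, the mitochondrial subunit of complex III, was at 1995, 2538, 2774, 3013 and 2975 FPKM over Day 0 to Day 4, in contrast to 8 of 9 nuclear subunits of that complex, which were below Day 0 at Day 4. MT-ATP6 was at 8381 FPKM at Day 0 and 12478 FPKM at Day 4. In the mutant line these genes were also higher with Dox, in 12 of 13 cases (92.3%, against 50.9% of genes) at a median of 0.14 and with none past 1.5-fold, with MT-CYB at 1842 and 2397 FPKM. All mitochondrial genes made up 10.2% of total FPKM at Day 0, 11.8%, 12.1%, 11.9% and 12.8% on Day 1 to Day 4, and 9.23% and 10.8% in the mutant.

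**Figure D5:**
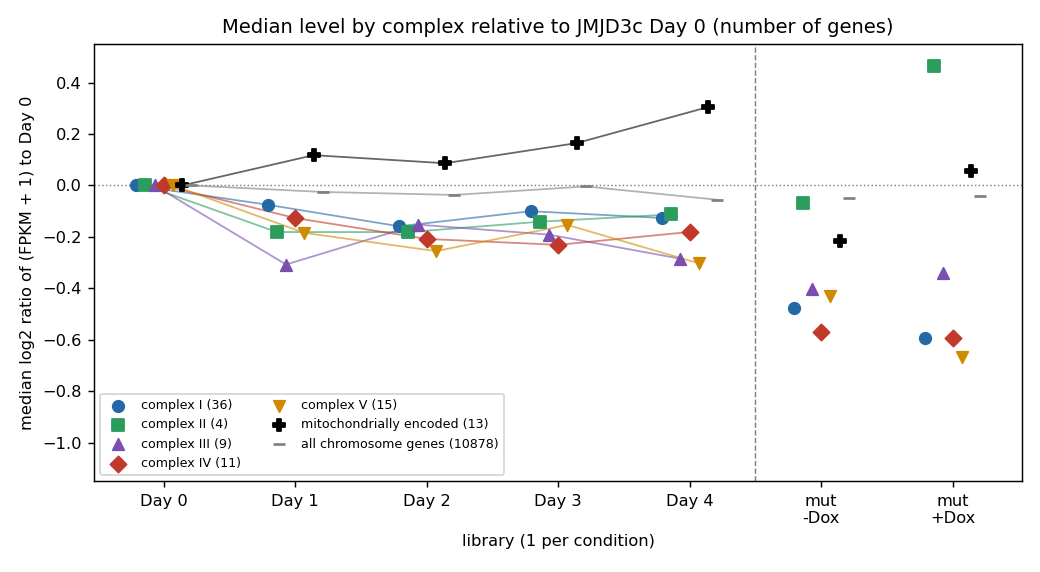
Median log2 ratio of (FPKM + 1) to JMJD3c Day 0 in each library for complexes I to V (nuclear-encoded members), the 13 mitochondrially encoded subunits and all chromosome genes above 4 FPKM. Mitochondrially encoded subunits are above Day 0 on all 4 days with Dox (0.09 to 0.30), all 5 nuclear groups are below it, and in the mutant with Dox only complex II (0.47) among the nuclear groups is above 0.

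The tissue-restricted and stress isoforms of complex IV were near or at the limit of detection. COX6A2, COX7B2 and COX8C were listed at 0 in all 7 libraries, as was ATP5L2 of complex V. COX4I2, which replaces COX4I1 in lung and under low oxygen, was at 0 in 5 libraries and at most 0.77 FPKM, and COX6B2, a testis form, reached 0.60 FPKM. For COX4I2 a count of 3 reads corresponds to 1.75 to 3.61 FPKM at the estimated depths, so a listed 0 allows levels up to these, its values above 0 lie below them, and these limits cover counting error only. NDUFA4L2, a relative of NDUFA4 known from hypoxia, was at 2.31 FPKM at Day 0, 1.15 on Day 1, 0.43 on Day 3 and 0 in the other 4 libraries. COX7A1, the heart and muscle form of subunit VIIa, was at 5.51 FPKM at Day 0, 0.67 and 1.52 FPKM on Day 1 and Day 2, 0 on Day 3 and Day 4, and 1.35 and 0 FPKM in the mutant. The ubiquitous COX7A2 gave at least 98.1% of the sum of both in every library.

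Genes that act on the complexes were examined as lists. Of 46 assembly factors, none was called higher and 14 (30.4%) were called lower at Day 4, against 12.9% and 17.8% of all genes, with a median of -0.23. In the mutant with Dox the median was 0.02, with 1 (2.17%) called higher and 4 (8.70%) lower, against 5.09% and 5.17%. Of 11 tested regulators of mitochondrial biogenesis, none was called higher and 1 (9.09%) lower at Day 4, against the same backgrounds, and the median was -0.12. Of these TFAM, which packages mitochondrial DNA, was at 57.7 FPKM at Day 0 and 53.0 at Day 4, and NRF1 at 8.18 and 9.47 FPKM. PPARGC1A, the one listed regulator that was not tested, was at 0.28 FPKM and 0. The 11 electron carriers and ADP/ATP exchange genes had a median of -0.10 with no call in either direction. The 13 genes of the tricarboxylic acid cycle had a median of +0.07, with 9 higher, none called higher and 1 (7.69%), IDH3G, called lower (30.3 against 17.0 FPKM). SDHA, which also works in that cycle, was thus lower at Day 4 while most of the other cycle enzymes were not.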

How the data were processed

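RNA was extracted with TRIzol, poly(A) RNA was selected, and directional libraries were sequenced as single reads on a MiSeq. Per the labels and the study's methods, the authors used CASAVA 1.4, aligned reads to hg19 with TopHat2 2.0.13 and estimated FPKM with Cufflinks 2.1.1, and the deposited tables hold 1 FPKM and a 95% interval per gene and library. FPKM divides by total and length, so a change in abundant RNAs shifts all other values. Whether the strand was used in counting is not given in the sources used here.

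Log2 ratios of (FPKM + 1) were computed for genes above 4 FPKM in either library with Python 3.11.15, pandas 2.3.3 and SciPy 1.17.1. A call needed a 1.5-fold ratio of FPKM with the higher value above 4. With 1 library per condition no test was run, and lists are described by counts and medians beside all genes tested. Lengths came from GENCODE annotation lifted to hg19 (86 of 88 members had a coding length). Depth was estimated by taking the commonest low FPKM step as 1 read, which limits low values only roughly. Calculations were tested on simulated data. Members, lists and comparisons were chosen with earlier results of these data known. Named genes were the 2 highest members per complex, the extremes per complex at Day 4, the 3 extremes each way in the mutant, up to 5 each way with Day 2 to Day 4 beyond both untreated libraries, every call with separate intervals, the complex IV isoforms and complex II. For calls between lines, counts and examples stand for the full set, and NDUFS1, ATP5A1 and the remaining genes of counts were named after their values were seen. Alternatives covered pseudocount, filter, scaling, GC content, length, expression level, entries of the same name, members, fold, intervals and the untreated reference.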

Additional observations from a re-analysis of the deposited data

Results flagged for a closer look

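The median of complex II lay on opposite sides of 0 in the 2 lines. Its median log2 ratio was -0.11 for JMJD3c Day 4 against Day 0 and 0.31 for the mutant with against without Dox, over 4 genes with 1 library per condition. The difference between the lines was not tested. Of the 4 genes, SDHB and SDHC differed in opposite directions, SDHA was lower with Dox in both lines and SDHD higher in both.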

How the results depend on the processing

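No paired analysis was possible because each condition had 1 library, and for the same reason no replicate could be left out. The median log2 ratio of the members kept its sign under every alternative except the choice of untreated library: against the untreated mutant it was 0.27, 0.30, 0.29 and 0.14 on Day 1, Day 2, Day 3 and Day 4, with 77.2%, 72.2%, 73.4% and 68.4% of members higher, 18, 19, 21 and 16 called higher and 0, 3, 2 and 2 called lower. Correction within 20 bins of transcript length gave medians of -0.038, -0.054, -0.0886 and -0.084 on the 4 days, with 45.0%, 37.5%, 37.5% and 40% higher, 2 and 4 called lower on Day 1 and Day 2, 2 called higher on Day 3, and 1 called higher and 7 lower on Day 4. It left 1 called lower in the mutant with Dox, gave -0.16 with 37.5% higher, 4 called higher and 18 lower for the untreated lines, and 0.021 with 53.2% higher, 12 called higher and 5 lower for Day 4 against the mutant with Dox. Correction for coding length, added after the data were seen, gave -0.057 and -0.0885 on Day 1 and Day 2, with 43.8%, 33.8%, 31.3% and 31.3% higher over the 4 days, 4 and 3 called lower on Day 1 and Day 2 and 1 called higher on Day 4. For the untreated lines it gave -0.25 with 26.3% higher, 2 called higher and 17 lower, and for the lines with Dox 0.051 with 11 called higher. Correction for expression level gave -0.057, -0.079 and -0.11 on Day 1, Day 2 and Day 4, with 43.8%, 36.3%, 37.5% and 31.3% higher on the 4 days, and 3 and 4 called lower on Day 1 and Day 2. On Day 2, setting the median of all genes to 0 gave -0.14 with 4 called lower, upper-quartile scaling -0.12 with 23.8% higher and 4 called lower, GC correction -0.14 with 23.8% higher, and a pseudocount of 4 left 4 called lower. GC correction left 0 called higher for the untreated lines. In the mutant with Dox, a pseudocount of 4 left 1 called higher and 0 lower. A filter of 1 FPKM gave 1 called higher on Day 1, and no filter gave 3 on Day 1 and 2 on Day 3. At 2-fold, 1, 1, 2 and 2 members were called lower on Day 1 to Day 4 and none higher on Day 2 and Day 3, 0 in either direction in the mutant with Dox, 0 higher and 14 lower for the untreated lines, and 9 higher and 0 lower with Dox. With separate intervals also needed, 3, 2 and 3 were called lower on Day 1 to Day 3, 0 higher on Day 2 and Day 3, 0 higher and 1 lower in the mutant with Dox, and 1 lower between lines with Dox. With Day 3 in place of Day 4, the median against the mutant with Dox was 0.37. Apart from the untreated reference, the share of all genes called is not given for the alternatives listed here. The cause of these changes was not tested. Depth limits the isoforms near 0, and wide intervals at Day 0, such as 29.3 to 68.0 FPKM for NDUFB3, also limit calls on expressed members.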
